A study of Rattus norvegicus with 14 samples.

Results

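The genes described here are the cytokines, chemokines and their receptors on a rat array: every gene whose symbol in the platform annotation begins with Tnf, Ifn or Cx3c, or with Il, Ccl, Cxcl, Ccr, Cxcr or Csf followed by a number. The rule picked 81 of 4952 probes, which stand for 74 of the 4156 genes with a symbol. Of the 74 genes 41 encode ligands, 31 encode receptors and 2 encode other secreted proteins, the IL-18 binding protein Il18bp and the TNF-induced protein Tnfaip6. Ccl2, Csf1, Cxcr4, Il1b, Il1rl1, Il3 and Tnfrsf1b had 2 probes each, which were averaged.

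RNA came from the small intestine of rats aged 20 days perfused for 4 h or 20 min with HG or with HF. Knowledge of the study, not its labels, is the basis for reading HG as high glucose and HF as high fructose, and on that reading the arrays ask which genes differ between fructose and glucose perfusion. Each 2-colour array set the RNA of 1 channel against that of the other: 5 arrays set HG against HF at 4 h, 4 did so at 20 min, and 3, named 1HG, 3HG and 3HF after their RNA, had a single RNA in both channels, in each case from the 4 h perfusion. A further array repeated pair 2 at 4 h and is called array 6, and another, the primer array, names only labelling primers. The sources used here do not give the strain, genotype or sex of the rats, a group without HG or HF, or whether each pair came from other animals. The p-values therefore measure only how far these arrays spread, which may be technical. The deposited values are ratios with no signal level, so the tissue could not be checked by the level of its markers, and fewer cells of a type cannot be told apart from less RNA per cell.

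The sources used here name neither the channels' dyes nor the base of the logarithm and the direction of the ratio. Base 2 is assumed, and a positive ratio is taken as likely to mean more RNA in HF. That basis is Slc2a5, the fructose transporter GLUT5 known to be induced by fructose, whose ratio was 1.65 ± 0.25 (SD, n = 5) on the log2 scale at 4 h and -0.32 ± 0.20 (SD, n = 4) at 20 min. On array 6, whose title is read as naming the dyes the other way round, it was -1.66. Signs below are those of the deposited ratios, and lower means toward HG on that reading. No label gives a labelling or scan day, so any batch that follows time cannot be told apart from it.

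Cytokines and chemokines are secreted proteins that immune, epithelial and stromal cells use to signal to each other. Interleukins, interferons and colony-stimulating factors act through receptors that often share a subunit and signal through JAK kinases and STAT factors, TNF and IL-1 family ligands act through NF-kB, and chemokines draw leukocytes through G protein-coupled receptors. In the small intestine epithelial Il15 is known for sustaining the lymphocytes that lie between enterocytes, and Ccl20 and Cx3cl1 for placing immune cells at the epithelium.

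Promoters are shown for 3 ligands, chosen after their values were seen from the genes matched in the promoter table: Il15, which differed between the times, and Cxcl1 and Cxcl10, chemokines whose differences had opposite signs. The 250 bases before the annotated start are given 5′ to 3′ on the gene's strand, from RefSeq on the GRCr8 build, and lie at chr19:42544456-42544705 on the plus strand for Il15, chr14:17479322-17479571 on the minus strand for Cxcl1 and chr14:15988816-15989065 on the plus strand for Cxcl10. Capitals mark matches, on either strand, to 5 motifs: the TATA letters TATAAA, the AP-1 site TGACTCA, the STAT site GAS spelled TTCNNNGAA, an ISRE-like motif of the interferon response spelled GAAA, any 2 bases and GAAA, and an NF-kB-like motif spelled GGGA, any 2 bases and TTCC.
Il15: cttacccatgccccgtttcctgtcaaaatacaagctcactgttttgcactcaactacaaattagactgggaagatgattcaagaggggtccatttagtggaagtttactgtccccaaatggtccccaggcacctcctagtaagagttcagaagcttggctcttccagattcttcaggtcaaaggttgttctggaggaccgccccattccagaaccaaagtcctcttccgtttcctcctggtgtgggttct
Cxcl1: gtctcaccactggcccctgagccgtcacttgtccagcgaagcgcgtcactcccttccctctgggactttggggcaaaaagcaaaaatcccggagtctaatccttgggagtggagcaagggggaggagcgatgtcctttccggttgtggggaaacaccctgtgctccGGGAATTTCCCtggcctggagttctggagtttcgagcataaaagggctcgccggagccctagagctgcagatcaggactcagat
Cxcl10: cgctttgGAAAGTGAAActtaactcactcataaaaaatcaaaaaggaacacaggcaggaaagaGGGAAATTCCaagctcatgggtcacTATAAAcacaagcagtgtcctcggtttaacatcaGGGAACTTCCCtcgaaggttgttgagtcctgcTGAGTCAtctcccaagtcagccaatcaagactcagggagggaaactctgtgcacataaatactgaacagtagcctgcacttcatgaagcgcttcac

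The Il15 stretch held no match to these 5 motifs. The Cxcl1 stretch held the NF-kB-like letters GGGAATTTCC, which begin 84 bases before the start and overlap a match on the other strand. The Cxcl10 stretch held the ISRE-like letters GAAAGTGAAA at 243 bases, NF-kB-like letters at 187 and 128 bases, TATAAA at 162 bases and TGAGTCA, the AP-1 motif on the other strand, at 96 bases before the start. Promoters were matched for 56 of the 74 genes. The NF-kB-like motif was present in 10.7% of these 56 and in 1.08% of all 33469 promoters of that length, the ISRE-like motif in 10.7% and 3.41%, the AP-1 motif in 12.5% and 4.05%, TATAAA in 25% and 12.9%, and the GAS motif in 7.14% and 7.67%. The 56 were each the first promoter listed for a gene. The 33469 were neither reduced in that way nor limited to genes on the array. A match describes letters and not binding, and no array measured binding.

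Il15 was the only gene of the 74 with an adjusted p under 0.05 between the times in limma's test. Its ratio was lower at 4 h than at 20 min by 0.83 on the log2 scale, a 1.78-fold difference. The ratio was -0.75, -0.87, -0.92, -0.67 and -0.35 on the arrays of pairs 1 to 5 at 4 h. It was -0.15, 0.00, 0.25 and 0.38 on the arrays of pairs 1 to 4 at 20 min, and 0.07, -0.16 and -0.12 on the same-RNA arrays 1HG, 3HG and 3HF. All 5 arrays at 4 h lay below every array of the other groups, and the arrays at 20 min overlapped the same-RNA arrays. The mean ratio was -0.71 ± 0.22 (SD, n = 5) at 4 h, 0.12 ± 0.24 (SD, n = 4) at 20 min and -0.07 ± 0.12 (SD, n = 3) on the same-RNA arrays.

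The difference between the times was -0.83 ± 0.14 (SE), with an adjusted p of 0.0296 in limma's test with Benjamini-Hochberg adjustment over all 4682 features. Against the same-RNA arrays Il15 differed by -0.64 ± 0.15 (SE) at 4 h, with a limma adjusted p of 0.214, and by 0.19 ± 0.16 (SE) at 20 min, with an adjusted p of 0.915. The call between the times was lost without the 4 h array of pair 1, 2 or 3 or the 20 min array of pair 2, 3 or 4, with differences from -0.92 to -0.74 and limma adjusted p from 0.0134 to 0.109 over the 9 arrays left out in turn. On array 6 the Il15 ratio was 0.97, against -0.87 on the first array of the same pair, and on the primer array it was 0.02. With array 6 averaged in as deposited, the call ended, with a difference of -0.65 and a limma adjusted p of 0.291. With its sign turned first, as a dye swap would need, the call was kept, with -0.86 and an adjusted p of 0.0354.

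In the same comparison of 4 h with 20 min, 1 of the 74 genes was called, beside 0.598% of all 4682 features. At an unadjusted p under 0.05, 12 of the 74 passed, 11 of them lower and 1 higher at 4 h, beside 13.5% of all features (7.22% lower and 6.3% higher). The 11 were Il15, Ccr7, Ccl2, Tnfrsf1a, Il1a, Cxcl1, Il3, Ccl22, Csf1r, Il9r and Il1b, and the gene with the higher ratio at 4 h was Cxcl10. The groups did not overlap for Il15, Ccr7, Ccl2, Tnfrsf1a, Il1a and Cx3cr1, 6 of the 74, beside 6.54% of all features. The median difference was -0.04 over the 74 genes and -0.01 over all features, and 47 of the 74 genes lay below 0, beside 51.97% of all features. Among ligands 27 of 41 lay below 0 with a median of -0.09, and among receptors 18 of 31 with a median of -0.01.

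**Figure D1:**
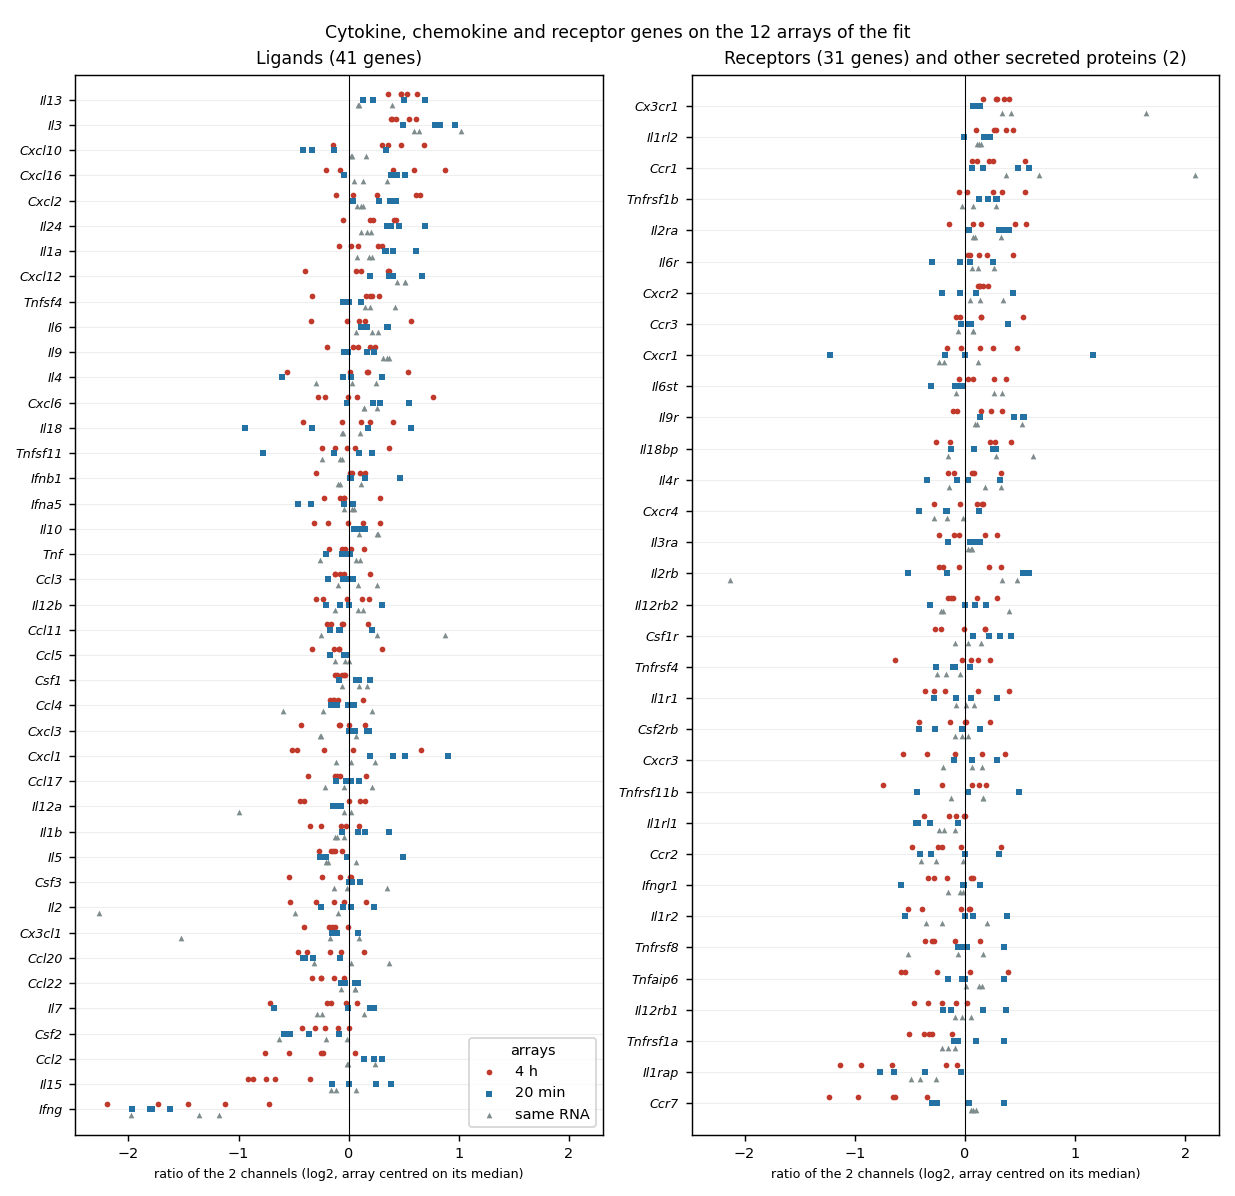
Ratio (log2) of each of the 74 genes on the 12 arrays of the fit, ligands on the left and receptors with the 2 other secreted proteins on the right, ordered by their mean at 4 h; red circles are 5 arrays at 4 h, blue squares 4 at 20 min and grey triangles 3 same-RNA arrays. Most points lie within 0.5 of 0, Ifng lies far below 0 in all 3 groups, and Il15 and Ccr7 lie below 0 on all 5 arrays at 4 h.

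Of the homeostatic chemokine receptors, Ccr7, which guides dendritic cells and naive T cells to lymph nodes, had the lowest mean ratio of the 31 receptors at 4 h. It was -0.65, -0.34, -0.97, -0.63 and -1.23 on the 5 arrays at 4 h, -0.25, 0.35, 0.03 and -0.30 at 20 min, and 0.08, 0.06 and 0.10 on the same-RNA arrays. The 4 h arrays lay below all others, although pair 2 at 4 h (-0.34) and pair 4 at 20 min (-0.30) nearly met. The difference of Ccr7 was -0.84 ± 0.20 (SE) against the same-RNA arrays, with a limma adjusted p of 0.214, and -0.72 ± 0.18 (SE) between the times, with an adjusted p of 0.12. On array 6 it was -0.02. With probes averaged, the remaining chemokine receptors had no unadjusted p under 0.05 between the times. Cxcr4, the receptor of Cxcl12, differed between the times by 0.18 ± 0.13 (SE). Its 2 probes gave 0.08 ± 0.21 (SE) and 0.28 ± 0.11 (SE). Cxcr1, a receptor for neutrophil-attracting chemokines, varied most: it was -1.23, 1.16, -0.18 and 0.00 on the 4 arrays at 20 min. The value of pair 4 was exactly 0, as it was for Cxcl3, Il1r2 and Tnfaip6 on that array. The deposited median of that array was also 0. Whether these zeros are measured ratios was not tested.

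Ccl2, the main attractant of monocytes, was -0.25, 0.06, -0.76, -0.54 and -0.23 at 4 h and 0.23, 0.30, 0.14 and 0.14 at 20 min, so that the groups did not overlap. On the same-RNA arrays it was 0.00, -0.02 and 0.24. The difference between the times was -0.55 ± 0.15 (SE), with a limma adjusted p of 0.13, and its 2 probes gave -0.57 and -0.52. Among the other CC chemokines Ccl22, a ligand of Ccr4 made by dendritic cells and macrophages, had an unadjusted p under 0.05, with -0.21 ± 0.09 (SE) between the times. Ccl20, the epithelial attractant of cells bearing Ccr6, differed by 0.12 ± 0.16 (SE), Ccl5, an attractant of T cells, by 0.03 ± 0.12 (SE) and Ccl11, the eosinophil attractant eotaxin, by -0.03 ± 0.19 (SE). Ccl3, Ccl4 and Ccl17 completed the 8 CC chemokines, whose differences between the times ran from -0.55 to 0.12.

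The 8 CXC and CX3C chemokines differed between the times by -0.60 to 0.47, with both ends held by genes that had an unadjusted p under 0.05. Cxcl1, an attractant of neutrophils, was 0.04, 0.65, -0.22, -0.46 and -0.51 at 4 h and 0.20, 0.51, 0.40 and 0.90 at 20 min. Its groups overlapped because pair 2 at 4 h lay above 3 of the 4 arrays at 20 min. The difference was -0.60 ± 0.23 (SE), with a limma adjusted p of 0.264. Cxcl10, an interferon-induced attractant of activated T cells, was 0.48, 0.30, 0.69, 0.35 and -0.14 at 4 h and -0.41, -0.33, -0.13 and 0.34 at 20 min. The groups overlapped, with pair 5 low at 4 h and pair 4 high at 20 min, and the difference was 0.47 ± 0.18 (SE), with a limma adjusted p of 0.274. The neighbours of Cxcl1 on the chromosome did not all share its value: Cxcl2, another neutrophil attractant, differed by 0.01 ± 0.16 (SE), and Cxcl3 by -0.19 ± 0.12 (SE).

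Cxcl12, the stromal ligand of Cxcr4, was 0.11, 0.07, 0.36, 0.37 and -0.40 at 4 h, and 0.44, 0.51 and 0.51 on the same-RNA arrays. The 4 h arrays all lay below the same-RNA arrays, by -0.39 ± 0.17 (SE) with a limma adjusted p of 0.466, while the difference between the times was -0.31 ± 0.15 (SE) with an adjusted p of 0.416. Cxcl6, Cxcl16 and Cx3cl1 had no unadjusted p under 0.05 in any comparison.

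**Figure D2:**
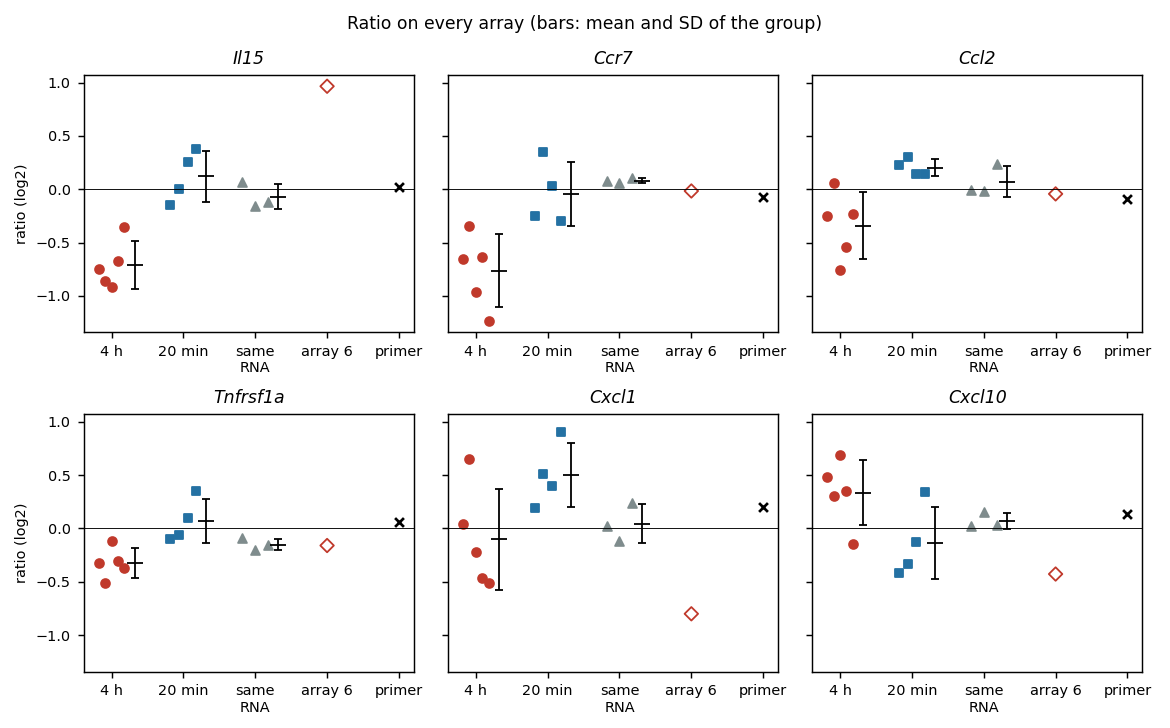
Ratio (log2) of Il15, Ccr7, Ccl2, Tnfrsf1a, Cxcl1 and Cxcl10 on every array, with the mean and SD of each group as a bar; array 6 (open diamond) and the primer array (cross) entered no test. The Il15 points at 4 h lie between -0.92 and -0.35, below all other groups, and its array 6 point lies at 0.97.

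Interleukins other than Il15 differed less between the times. Of the 16 interleukins 13 lay below 0, beside 51.97% of all features, with a median difference of -0.15. Il15, Il1a, Il3 and Il1b, 4 of the 16, had an unadjusted p under 0.05, beside 13.5% of all features (7.22% lower). Each of the 4 had a lower ratio at 4 h. Il1a, an IL-1 ligand released by damaged cells, was 0.02, 0.31, 0.26, -0.09 and 0.08 at 4 h and 0.33, 0.40, 0.34 and 0.61 at 20 min. The groups of Il1a nearly met but did not overlap, and the difference was -0.30 ± 0.10 (SE), with a limma adjusted p of 0.217. Il1b, the other IL-1 ligand and its neighbour on the chromosome, differed by -0.25 ± 0.11 (SE), with an adjusted p of 0.354. The IL-1 family receptors and coreceptors Il1r1, Il1r2, Il1rap, Il1rl1 and Il1rl2 had no unadjusted p under 0.05. Il1rl1, the receptor of IL-33, differed by 0.19 ± 0.11 (SE), but 1 of its 2 probes gave 0.42 ± 0.24 (SE) and the other -0.04 ± 0.13 (SE). The probe with 0.42 was -1.18, -1.05, -0.78 and exactly 0 on the 4 arrays at 20 min. Il1rl2, the receptor of IL-36, differed by 0.15 ± 0.09 (SE).

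The probes of Il3, a growth factor of mast cells and basophils, also disagreed. The probe averages of Il3 differed between the times by -0.30 ± 0.12 (SE), with a limma adjusted p of 0.298, made up of -0.55 ± 0.21 (SE) and -0.04 ± 0.10 (SE). The other probe pairs gave -0.23 and -0.05 for Csf1, 0.08 and 0.28 for Cxcr4, -0.15 and -0.36 for Il1b, and -0.17 and 0.16 for Tnfrsf1b between the times. Tnfrsf1b and Il1rl1 were thus the genes with 2 probes of opposite sign in this comparison.

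The inflammatory cytokine Tnf differed between the times by 0.06 ± 0.10 (SE), the acute-phase cytokine Il6 by -0.16 ± 0.15 (SE), the anti-inflammatory Il10 by -0.11 ± 0.12 (SE) and the epithelial cytokine Il18 by 0.18 ± 0.26 (SE). The signalling subunit gp130, Il6st, differed by 0.26 ± 0.12 (SE), with a limma adjusted p of 0.381, and Il6r, which binds IL-6, by 0.18 ± 0.12 (SE). Il18 had a wide spread at 20 min, where its ratio was 0.18, -0.34, -0.94 and 0.56.

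Among TNF receptors Tnfrsf1a, which carries most TNF signalling in epithelial and stromal cells, was -0.32, -0.51, -0.11, -0.30 and -0.37 at 4 h and -0.10, -0.06, 0.10 and 0.36 at 20 min. The groups did not overlap, though pair 3 at 4 h and pair 1 at 20 min nearly met. The difference of Tnfrsf1a was -0.40 ± 0.11 (SE), with a limma adjusted p of 0.139. Against the same-RNA arrays, at -0.09, -0.21 and -0.15, it was -0.18 ± 0.12 (SE) at 4 h. Tnfrsf1b, the second TNF receptor, differed between the times by -0.01 ± 0.13 (SE). Tnfrsf4, Tnfrsf8 and the decoy receptor Tnfrsf11b had no unadjusted p under 0.05, nor did the ligands Tnfsf4 and Tnfsf11.

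Csf1, the macrophage growth factor, differed between the times by -0.14 ± 0.08 (SE) and its receptor Csf1r by -0.28 ± 0.12 (SE), with a limma adjusted p of 0.335. Csf2, Csf3 and the shared receptor subunit Csf2rb had no unadjusted p under 0.05. The 14 interleukin receptors differed by -0.30 to 0.26, and 1 of them, Il9r, had an unadjusted p under 0.05, with an adjusted p of 0.353. Il2rb, a subunit that IL-15 and IL-2 share, differed between the times by -0.10 ± 0.46 (SE). Il15ra and Il2rg, the other subunits of the IL-15 receptor, and Ccl25 with its receptor Ccr9 were not measured under those symbols. Il4 and Il5, type 2 cytokines, differed between the times by 0.15 ± 0.22 (SE) and -0.15 ± 0.14 (SE), and Il7, a survival factor of lymphocytes, by -0.14 ± 0.21 (SE). Il12b, Il2ra, Il3ra, Il4r, Il12rb1, Il12rb2, Ifnb1, Ifngr1, Ccr2, Ccr3, Cxcr2, Cxcr3, Il18bp and Tnfaip6 complete the 74 and had no unadjusted p under 0.05 in any comparison.

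**Figure D3:**
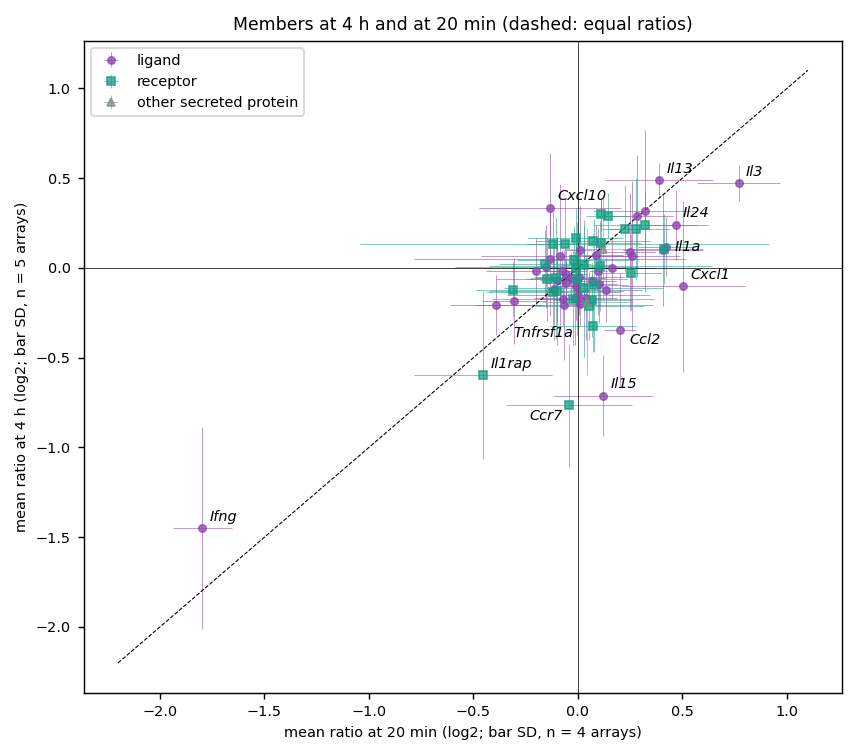
Mean ratio (log2) of each of the 74 genes at 20 min (horizontal, n = 4 arrays) and at 4 h (vertical, n = 5 arrays), with SD bars, ligands as circles, receptors as squares and other secreted proteins as triangles; the dashed line marks equal ratios. Il15 and Ccr7 lie below the line by 0.83 and 0.72, Cxcl10 lies above it by 0.47, and Ifng is far below 0 at both times.

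Against the same-RNA arrays none of the 74 genes was called at 4 h, beside 0.0641% of all features, or at 20 min, beside 0.0427%, in limma's test. At 4 h 8 of the 74 had an unadjusted p under 0.05, beside 9.97% of all features: Il13 with a higher ratio, and Ccr7, Il15, Ccl2, Ccr1, Il9, Ccl22 and Cxcl12 with lower ratios (5.21% of all features were lower and 4.76% higher). The groups did not overlap for Ccr7, Il15, Il9 and Cxcl12, beside 6.71% of all features. At 20 min 6 had an unadjusted p under 0.05, beside 5.21% of all features: Il24, Il2 and Il1a with higher ratios, and Cx3cr1, Ccr1 and Il9 with lower ratios (2.58% of all features were higher and 2.63% lower). The groups did not overlap for Cx3cr1, Il24, Il1a, Il9 and Tnfsf4, beside 7.01%. Both comparisons share the same-RNA arrays.

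Il13, a type 2 cytokine that acts on goblet cells, was 0.47, 0.36, 0.47, 0.62 and 0.53 at 4 h and 0.08, 0.39 and 0.09 on the same-RNA arrays. Array 3HG reached into the 4 h range, and the difference was 0.30 ± 0.14 (SE), with a limma adjusted p of 0.492. Il9, a growth factor of mast cells, was 0.37, 0.32 and 0.35 on the same-RNA arrays, above every array at 4 h and at 20 min. It differed by -0.27 ± 0.11 (SE) at 4 h and by -0.26 ± 0.12 (SE) at 20 min, with limma adjusted p of 0.453 and 0.801. Il24, an epithelial-acting cytokine of the IL-10 family, was 0.45, 0.39, 0.69 and 0.34 at 20 min and 0.16, 0.11 and 0.20 on the same-RNA arrays, a difference of 0.31 ± 0.13 (SE) with a limma adjusted p of 0.801. Il1a was higher than on the same-RNA arrays by 0.26 ± 0.12 (SE) at 20 min, with the same adjusted p.

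The same-RNA arrays show what a probe gives when both channels hold the same RNA, and several of these genes lay far from 0 there. Ifng, the type II interferon of T and NK cells, was -1.17, -1.36 and -1.97 on the same-RNA arrays 1HG, 3HG and 3HF. It was -1.12, -1.46, -1.73, -2.19 and -0.73 at 4 h and -1.63, -1.97, -1.81 and -1.78 at 20 min, around that range, and -2.001 on array 6. On the primer array it was -0.18. Its difference from the same-RNA arrays was 0.05 ± 0.28 (SE) at 4 h and -0.29 ± 0.30 (SE) at 20 min, with limma adjusted p of 0.96 and 0.949. A ratio of Ifng against 0 would thus give a mean of -1.45 at 4 h and -1.80 at 20 min for a gene that did not differ detectably from arrays of 1 RNA. The other interferons, Ifna5 and Ifnb1, had same-RNA means of 0.01 and -0.02, and Ifna5 differed between the times by 0.18 ± 0.13 (SE).

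Il3 was 0.60, 1.02 and 0.64 on the same-RNA arrays, with means of 0.47 ± 0.10 (SD, n = 5) at 4 h and 0.77 ± 0.20 (SD, n = 4) at 20 min. These are averages of 2 probes, at 0.87, 1.87 and 1.00 and at 0.32, 0.17 and 0.29 on the same-RNA arrays. At 4 h the first probe differed from the same-RNA arrays by -0.71 ± 0.23 (SE) and the second by 0.15 ± 0.11 (SE). The accessory receptor Il1rap, which IL-1 and IL-33 receptors need to signal, had a mean of -0.39 ± 0.11 (SD, n = 3) on the same-RNA arrays, -0.60 ± 0.47 (SD, n = 5) at 4 h and -0.45 ± 0.33 (SD, n = 4) at 20 min. Ratios of these genes away from 0 were therefore present without a difference in RNA.

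Array 1HG stood apart from the other same-RNA arrays. Over all probes its SD was 1.39, against 0.346 on 3HG, 0.303 on 3HF and 0.334 to 0.401 on the HG and HF arrays of the fit, and 6 of the 74 genes lay beyond 1 on it. Ccr1, a receptor of inflammatory chemokines, was 2.09 on 1HG and 0.67 and 0.37 on 3HG and 3HF. Cx3cr1, the fractalkine receptor of intestinal macrophages, was 1.65, 0.34 and 0.41, and its ligand Cx3cl1 was -1.52, 0.10 and -0.17. Il2, the T cell growth factor, was -2.26, -0.10 and -0.49, its receptor subunit Il2rb -2.13, 0.34 and 0.47, and Il12a, a subunit of IL-12, -0.995, -0.04 and 0.02. Ccl11 was 0.87, -0.25 and 0.25.

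Several differences from the same-RNA arrays rested on 1HG. At 20 min, with 1HG and without it, the difference was -0.72 and -0.20 for Ccr1, -0.69 and -0.27 for Cx3cr1, 0.94 and 0.28 for Il2, 0.46 and -0.04 for Cx3cl1, and 0.55 and -0.29 for Il2rb. At 4 h it was -0.80 and -0.28 for Ccr1, -0.50 and -0.08 for Cx3cr1, 0.78 and 0.12 for Il2, and 0.45 and -0.39 for Il2rb. Without 1HG 4 of the 74 genes had an unadjusted p under 0.05 at 4 h, 3 of them among the 8 with 1HG. At 20 min 3 had it, 1 of them among the 6 with 1HG. The shares of all features were not counted in this setting. The comparison of 4 h with 20 min uses the array 1HG only in its shared estimate of the spread. Cx3cr1 was 0.16, 0.40, 0.29, 0.28 and 0.36 at 4 h and 0.14, 0.13, 0.07 and 0.10 at 20 min, groups that did not overlap, and its difference was 0.19 ± 0.22 (SE) in that shared fit, with a limma adjusted p of 0.777, and an adjusted p of 0.427 in a fit of the 4 h and 20 min arrays alone.

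**Figure D4:**
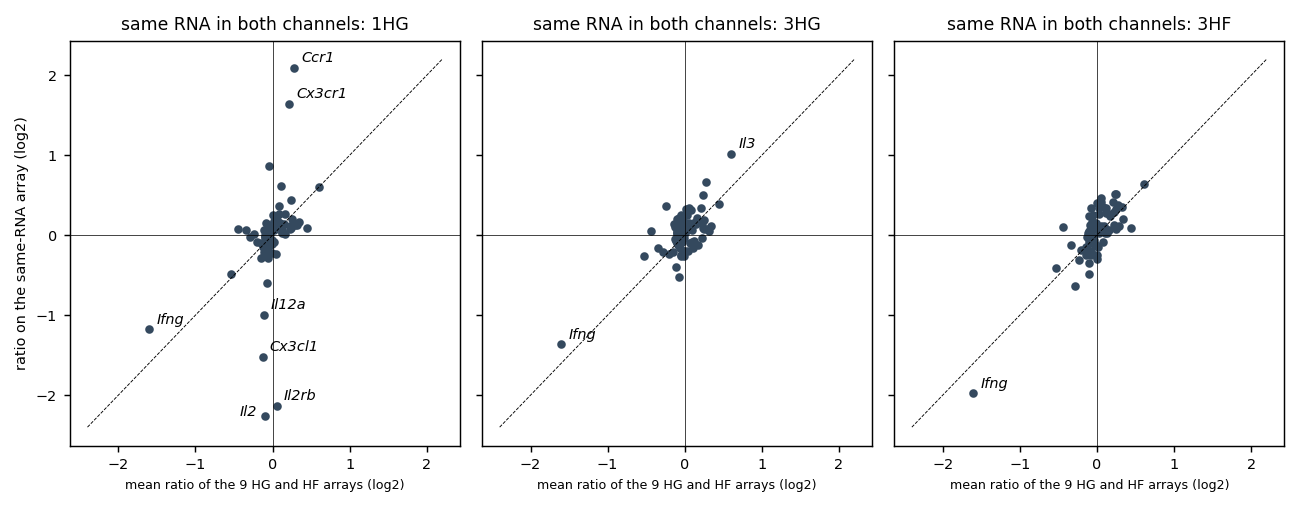
Ratio (log2) of the 74 genes on each same-RNA array (vertical) against their mean over the 9 HG and HF arrays of the fit (horizontal); the dashed line marks equal values. Ifng lies near the line on all 3 arrays, while Ccr1, Cx3cr1, Il12a, Cx3cl1, Il2rb and Il2 leave it on array 1HG.

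Array 6 set HG against HF from pair 2 again, and the 74 genes spread more widely on it than on any other array. Their SD was 0.989, against 0.371 on the first array of pair 2, and 15 of them lay beyond 1 and 7 beyond 2. Over all probes the SD was 0.824 on array 6, against 0.383 on the first array of pair 2, but array 1HG was wider at 1.39. On array 6 14.3% of all features lay beyond 1 and 4.61% beyond 2. On array 1HG these shares were 7.33% and 4.63%. On array 6 and on the first array, Il2ra, the high-affinity subunit of the IL-2 receptor, was 3.22 and 0.56, Cxcl6 2.84 and 0.76, Il9r 2.71 and 0.33, Il24 2.54 and 0.43, and Ccr1 2.10 and 0.55. Il1rap was -2.51 and -0.67, and Ifng -2.001 and -1.46. These 7 had the same sign on both arrays, whereas Il15 and Slc2a5 had opposite signs. Opposite signs were also found for other genes, among them Cxcl1 at -0.80 and 0.65, Cxcl2 at -0.57 and 0.61 and Cxcl10 at -0.43 and 0.30. With the same-RNA median subtracted, 32 of the 74 genes (43.2%) had the opposite sign on array 6 to their mean at 4 h, beside 46.6% of all features, so no settled direction could be read from array 6 over these genes.

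**Figure D5:**
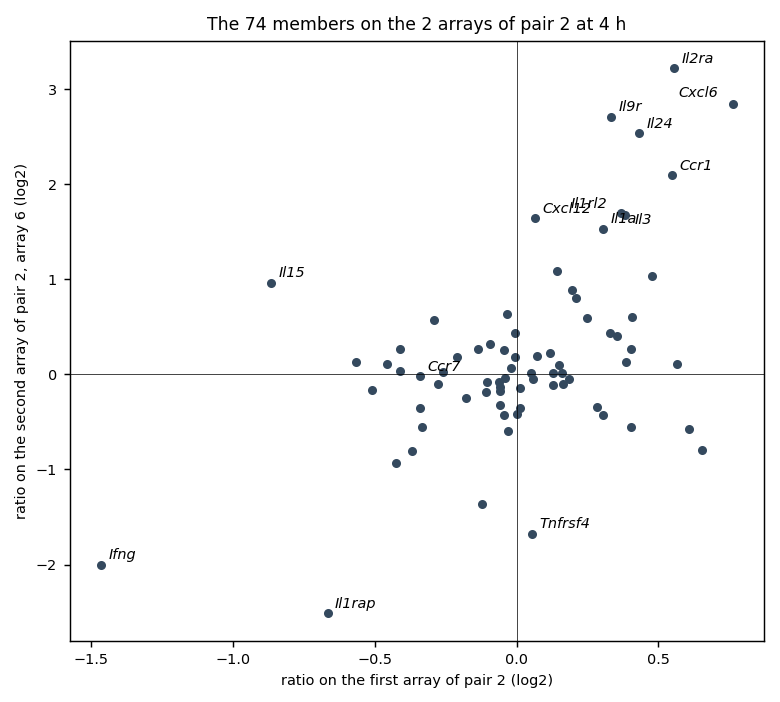
Ratio (log2) of the 74 genes on the first array of pair 2 at 4 h (horizontal) and on its second array, array 6 (vertical). Il15 lies at -0.87 and 0.97, in the quadrant of opposite signs, while Il2ra, Cxcl6, Il9r, Il24 and Ccr1 lie above 2 on array 6 with positive ratios on both.

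The primer array gave small values for these genes: their SD was 0.193, no gene lay beyond 1, and the largest absolute ratio was 0.575.

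The 74 genes held 14 groups of neighbours, taken as genes whose starts lie at most 1000 kb from the next in GRCr8. Between the times all genes of 6 groups lay below 0, all genes of 1 group lay above 0, and 7 groups held both signs. In the type 2 cytokine cluster of Il4, Il13, Il5, Csf2 and Il3, the differences between the times ran from -0.30 to 0.18 with 2 of 5 below 0. Il1a and Il1b, at -0.30 and -0.25, both lay below 0. In the cluster of Cxcl2, Cxcl1, Cxcl3 and Cxcl6 the differences ran from -0.60 to 0.01 with 3 of 4 below 0, in that of Ccl17, Cx3cl1 and Ccl22 from -0.21 to -0.09 with 3 of 3 below 0, and in that of Ccl5, Ccl3 and Ccl4 from -0.03 to 0.03 with 1 of 3 below 0.

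Genes that carry the signals of these receptors were taken from lists chosen with earlier results known, and none of them was called in any comparison. Of the JAK, STAT and SOCS genes 14 of 25 listed were measured. An unadjusted p under 0.05 was held by 0 at 4 h against the same-RNA arrays, 1 at 20 min and 0 between the times. The shares of all features were 9.97%, 5.21% and 13.5%. Against the same-RNA arrays Stat3 lay farthest from 0 in this list, at -4.66 ± 2.17 (SE) at 4 h and -4.08 ± 2.27 (SE) at 20 min. Its limma adjusted p was 0.492 and 0.801, and the groups of Stat3 overlapped in both comparisons. Between the times the 14 genes of this list differed by only -0.58 to 0.24. Of the NF-kB, TNF and IL-1 signalling genes 6 of 35 were measured and none had an unadjusted p under 0.05. Nfkb1, which encodes an NF-kB subunit, differed between the times by -0.29 ± 0.13 (SE), with a limma adjusted p of 0.373. Of 27 interferon targets, adhesion and inflammation genes 17 were measured. Between the times 5 of the 17 had an unadjusted p under 0.05, 2 higher and 3 lower at 4 h. Of all features 13.5% did, 6.3% higher and 7.22% lower. Casp1, which cleaves the IL-1b and IL-18 precursors, differed between the times by 0.44 ± 0.14 (SE) and from the same-RNA arrays at 4 h by 0.49 ± 0.15 (SE), with limma adjusted p of 0.184 and 0.343. Icam1, a leukocyte adhesion molecule, differed between the times by -0.23 ± 0.09 (SE) and from the same-RNA arrays at 4 h by -0.38 ± 0.10 (SE), with limma adjusted p of 0.274 and 0.237.

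Markers of the cells that make or receive these signals were counted beside the Il15 difference. Between the times 0 of 8 T cell, 0 of 9 NK cell and 1 of 5 macrophage markers had an unadjusted p under 0.05. Among mast cell markers it was 0 of 7 and among neutrophil markers 0 of 8, beside 13.5% of all features. No marker was called. Of 16 enterocyte markers 4 had an unadjusted p under 0.05, all with lower ratios at 4 h, beside 7.22% of all features that were lower. The 16 differences ran from -0.91 to 0.34 with a median of -0.23, and 5 of them lay above 0. The 4 were the lipoprotein genes Apoc3 with -0.91 ± 0.20 (SE), Apoa1 with -0.44 ± 0.11 (SE) and Apoa4 with -0.39 ± 0.13 (SE), and the fatty acid binding protein Fabp2 with -0.50 ± 0.18 (SE). Of 8 endothelial and 5 smooth muscle markers 1 each had an unadjusted p under 0.05, Tek with -0.40 ± 0.12 (SE) and Cnn1 with -0.47 ± 0.18 (SE). The part of these markers in the Il15 difference was not tested.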

How the data were processed

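The authors deposited 1 table of log ratios of 2-colour arrays, treated here as log2 values. The sources used here do not name the scanner, background correction, normalization or base. The genes, lists and rules were chosen with earlier results of these data known. Each array was centred on its median, and probes of 1 symbol were averaged, which left 4682 features. Symbols came from the platform annotation, and all 74 equal the RefSeq symbol of their Entrez identifier. The functions lmFit and eBayes of limma 3.58.1, run in R 4.3.3, fitted 12 arrays in 3 groups with 9 residual and 2.84 prior degrees of freedom, and gave 3 differences: 4 h minus same-RNA, 20 min minus same-RNA, and 4 h minus 20 min. Calls needed an adjusted p under 0.05 by Benjamini and Hochberg's method over all features. Named genes are those called, up to 8 per comparison and direction by smallest p, the 4 farthest from 0 on the same-RNA arrays, and a fixed set of known intestinal cytokine genes; other genes named for their spread, position or array 6 value were chosen after their values were seen. Array 6 stayed out of the fit because its title is read as a dye swap. The number of arrays limits the precision. The steps were tested on simulated data. Alternatives were other scalings, single probes, fewer groups, array weights, a robust prior, array 6 added, a pair block, ratios against 0 and each array left out.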

Additional observations from a re-analysis of the deposited data

Results flagged for a closer look

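In a search of 148 groups of 4 or 5 arrays, 5 held an array far from the rest, and chance gives about 1 in 20 groups. Ccl3 was 0.19 on the 4 h array of pair 3, against -0.13 to -0.04 on the others. Ccl4 was 0.13 on the 4 h array of pair 1, against -0.17 to -0.10. Cx3cl1 was 0.0842 on the 20 min array of pair 2, against -0.15 to -0.11. Tnfrsf4 was -0.64 on the 4 h array of pair 3, against -0.03 to 0.22. Tnfsf4, the OX40 ligand, was -0.33 on the 4 h array of pair 5, against 0.15 to 0.27.

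Il15 differed between 4 h and 20 min by -0.83 in limma's test of the difference between the times.

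On array 6, which entered no comparison, 5 genes lay farther from 0 than any of the 74 did on the same-RNA arrays, where the largest absolute ratio was 2.26. They were Il2ra at 3.22, Cxcl6 at 2.84, Il9r at 2.71, Il24 at 2.54 and Il1rap at -2.51.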

How the results depend on the processing

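Il15 stayed called between the times under 9 of the 10 other settings run for that comparison. With array 6 averaged in as deposited 0 of the 74 genes and 0 features were called, and leaving out each array in turn gave 0 to 1 of the 74. Taken against 0, with no same-RNA mean subtracted, 11 of the 74 were called at 4 h, beside 763 of all 4682 features. At 20 min 9 of the 74 were called, beside 384 of all 4682 features. In that setting signs turned for 26 of the 74 at 4 h and for 24 at 20 min. Among these were 4 h ratios of 0.24 for Ccr1, 0.10 for Cxcl12, -1.45 for Ifng, 0.47 for Il3 and 0.0717 for Il9. At 20 min they included 0.32 for Ccr1, 0.11 for Cx3cr1, 0.41 for Cxcl12, -0.0124 for Il2 and 0.0878 for Il9. By its construction the setting keeps what the same-RNA arrays show. Same-numbered arrays at the times correlated at -0.07, 0.16, -0.03 and -0.02 in their deviations, and 1 of 4 correlated best with its own number. Such correlations do not identify animals, so whether pair numbers pair the samples across the times was not settled. With the pair number as a replicate block, 1 of the 74 was called between the times (Il15, -0.92), with 12 features called in place of 28. With arrays scaled to one spread 16 features were called. Signal over background was not used here, which leaves dim and bright probes mixed.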
